A study of Drosophila melanogaster with 3 samples.

Results

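The 7 genes described here are the core of the Drosophila JAK-STAT pathway: the ligand genes upd1, upd2 and upd3, the receptor gene dome, the kinase gene hop, the transcription factor gene Stat92E and the feedback inhibitor gene Socs36E. They were chosen by name out of 13945 protein-coding genes on the 6 main chromosome arms. No cut-off on a measured value was used, but earlier results of these data were known when they were chosen. A region was assigned to a gene when its summit, the base of highest enrichment, lay in the gene body or within 5 kb of it. Of 4934 peaks in all, 9 lay in these 7 windows, and of 30000 pooled candidate regions, 43 did.

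The study was a chromatin immunoprecipitation with sequencing (ChIP-seq) experiment on CG9139, which encodes Rabex-5, a protein known for activating the endosomal GTPase Rab5 and for ubiquitin ligase activity. All 3 libraries belong to 1 group: whole prepupae of mixed sex, labelled 24 hours, of a transgenic Drosophila melanogaster line that stably expresses CG9139 with green fluorescent protein (GFP) at its C-terminus. The description names an anti-GFP antibody, the antibody label reads CG9139, the 3 replicates are labelled biological, and chromatin was sonicated to 200 to 800 bp. The reference for enrichment was 1 control alignment that the replicates share, and no library without the tagged protein was analysed here. The labels do not give the promoter that drives the fusion, and because whole animals were used, values average over all tissues. No expression values were analysed here, so neither the stage nor any cell type could be checked against markers.

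In the JAK-STAT pathway, secreted Unpaired cytokines bind the receptor Domeless (dome), which activates the Janus kinase Hopscotch (hop). Hopscotch phosphorylates Stat92E, which enters the nucleus and binds sites of the form TTCNNNGAA, a TTC and a GAA spaced by any 3 bases. Socs36E is among the genes that Stat92E activates, and its product dampens the signal. The pathway is known for roles in embryonic segmentation, blood cell and stem cell control, growth of imaginal tissue, and responses to injury and infection.

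Peaks were found at 3 of the 7 genes, upd3, Stat92E and Socs36E, with 3 peaks at each. The peaks are those that passed the authors' irreproducible discovery rate (IDR) threshold over the replicates, and are called IDR peaks below. Set beside this, 37.1% of all 13945 protein-coding genes had an IDR summit in the same kind of window. Among the 4701 genes with a body of 2631 to 16989 bp, the span from the shortest to the longest of the 7 genes, the share was 44.4%. A window with 3 or more IDR summits was found at 8.19% of all protein-coding genes. This share was not computed for genes of like length, and the windows of upd3, Stat92E and Socs36E span 17364, 26989 and 23743 bp. Transcription start sites (TSSs) with an IDR summit at most 500 bp away were found at 2 of the 7 genes, upd3 and Stat92E, and in 13.2% of all protein-coding genes. No peaks were listed in the windows of upd1, upd2, dome and hop. At least 1 pooled candidate was listed at 6 of the 7 genes, all but dome, beside 72.6% of all protein-coding genes.

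The signal of a region, the authors' enrichment over the control alignment, depends on depth, and the depth is unknown because the lists hold no read counts. Signals were therefore read as ranks within a list, or as relative signal, a region's signal divided by the median over the IDR peaks in the same replicate (77 in replicate 1, 50.4 in replicate 2 and 58.8 in replicate 3). By signal, the IDR list equals the first 4934 pooled candidates, with a median of 168, a lowest value of 105 and a highest of 3054. A candidate was counted among the strongest of a replicate when its rank there was 4934 or better, which is as many as there were IDR peaks.

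The 9 peaks at the JAK-STAT genes were present in the candidate lists of all 3 replicates, as were 96.8% of all IDR peaks. Among the strongest candidates of all 3 replicates were 4 of the 9, beside 58.0% of all IDR peaks, and the other 5 were among the strongest of exactly 2. Of the 9, 8 were among the strongest in replicate 1, 6 in replicate 2 and 8 in replicate 3, beside 82.6%, 79.6% and 79.7% of all IDR peaks in the same replicates. With 1 replicate left out and a peak kept when it was among the strongest of both others, 5 of the 9 remained without replicate 1, 7 without replicate 2 and 5 without replicate 3. Of all IDR peaks, 67.3% remained without replicate 1, 66.3% without replicate 2 and 67.3% without replicate 3. The 3 peaks of Stat92E remained in each case. A signal above the median of the IDR peaks was found for 4 of the 9, all 3 at Stat92E and 1 at Socs36E. Of the 34 pooled candidates of the 7 genes outside the IDR list, 13 were listed in every replicate, as were 37.5% of all such candidates, and 1 was listed in none. Some of the 13 overlap an IDR peak and were matched to the same replicate regions as that peak. They occur at upd3, Stat92E and Socs36E, and do not count as regions that recur by themselves.

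**Figure D1:**
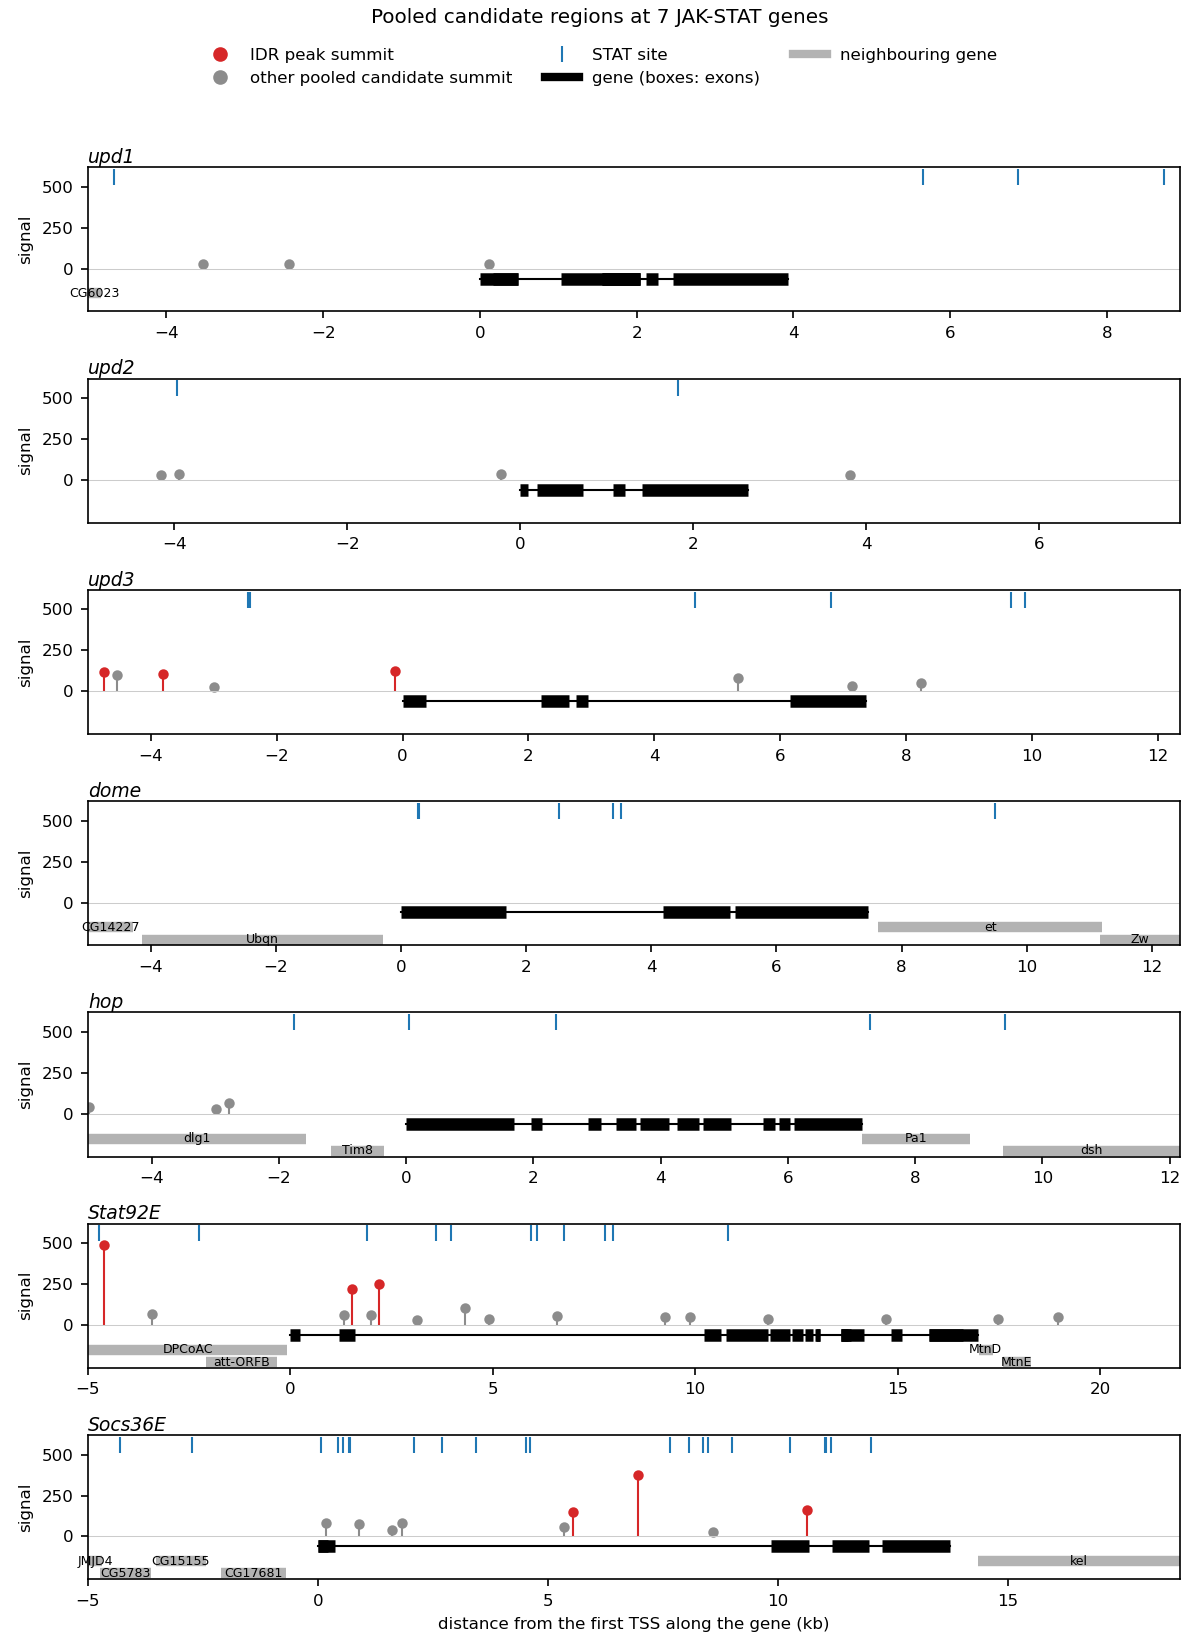
Pooled candidate summits at the 7 JAK-STAT genes. The horizontal axis is the distance in kb from the first TSS along the direction of transcription, and the vertical axis is the authors' pooled signal. Red points are the 9 IDR peaks, gray points the other candidates, black boxes exons, gray bars neighbouring genes and blue ticks sites of the form TTCNNNGAA. The tallest points are at Stat92E (488) and Socs36E (378), and the dome panel has no candidate.

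The ligand genes lie in a row on the X chromosome, within 68638 bp from 18240654 to 18309291 (dm6), an interval that holds 4 protein-coding genes. They encode secreted cytokines, and upd3 is also known for its induction in blood cells and gut after damage or infection. The 3 ligand genes differed in what was listed. The window of upd3 held 3 IDR peaks, and those of upd1 and upd2 held candidates of low rank only. With 5 kb added to each side, 78638 bp in all, the interval held 5 IDR summits, 0.636 per 10 kb, against 0.369 per 10 kb of known bases over the 6 arms. Outside the 3 windows, the interval held 1 summit of signal 117 between upd3 and upd1, 14015 bp downstream of the nearest TSS of upd1, and 1 of signal 168, 2791 bp downstream of the TSS of CG15059.

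The peak at the start of upd3 (FBgn0053542, plus strand, 18277233 to 18284596) covered 18276905 to 18277334, and its summit lay 113 bp upstream of the TSS. Its pooled signal was 123, rank 3902, above 20.9% of all IDR peaks. The signals were 48.8, 35.3 and 32.7 in replicates 1, 2 and 3, at ranks 4774, 4460 and 6124, so replicate 3 placed it outside the strongest candidates. Its relative signal was 0.63 ± 0.0721 (SD, n = 3), below the median of the IDR peaks in every replicate. The 201 bp around its summit are shown because it is the only peak of a ligand gene near a TSS. They are X:18277020-18277220 of dm6, plus strand, from the RefSeq copy of the Release 6 genome, and capitals mark the letters CTCTC, the reverse complement of GAGAG, which is the core of the GAGA factor site.
upd3, 113 bp upstream: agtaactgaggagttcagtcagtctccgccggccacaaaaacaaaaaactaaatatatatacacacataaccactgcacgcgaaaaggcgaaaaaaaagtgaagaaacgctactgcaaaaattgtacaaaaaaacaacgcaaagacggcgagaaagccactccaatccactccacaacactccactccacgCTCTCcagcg

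The other 2 peaks of upd3 were intergenic and further upstream. The summit 4753 bp upstream (18272265 to 18272694) had a pooled signal of 119.9, and 78, 22 and 40.3 in replicates 1, 2 and 3. The summit 3814 bp upstream (18273204 to 18273633) had a pooled signal of 107, at rank 4841 close to the end of the IDR list, and 53, 16.8 and 42.1 in the replicates. Both were weak in replicate 2, at ranks 9111 and 13280, and among the strongest candidates in replicates 1 and 3. Without replicate 1 none of the 3 upd3 peaks was among the strongest of both others, without replicate 2 there were 2 and without replicate 3 there was 1. Just outside the IDR list, upd3 had a candidate next to the most distant peak, at rank 5324, and a candidate in its intron, 5337 bp downstream of the TSS, of signal 83.8 at rank 6704.

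At upd1 (FBgn0004956, minus strand, 18305354 to 18309291), the pooled list held 3 candidates of signal 29.9 to 32. The strongest lay 3528 bp upstream, nearer to the TSS of CG6023, at rank 23238. Another, of signal 31.5, lay 45 bp upstream of the nearest of the 3 upd1 TSSs, within the 5′ UTR of a longer transcript. The best rank of any candidate at upd1 was 24423, 7381 and 24449 in replicates 1, 2 and 3, so none was among the strongest candidates. At upd2 (FBgn0030904, minus strand, 18240654 to 18243284), 4 candidates had signals of 29.6 to 38.6, the strongest 229 bp upstream of the TSS at rank 17977. Replicate 1 listed no candidate at upd2, replicate 2 listed one of rank 11172 lying 150 bp upstream, and replicate 3 listed one of rank 9806 lying 318 bp upstream.

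The receptor gene dome (FBgn0043903, X, minus strand, 19676061 to 19683518) was the only one of the 7 without a pooled candidate, yet each replicate listed a region just inside it. The summit lay 579 bp downstream of the TSS in replicate 1, 394 bp in replicate 2 and 437 bp in replicate 3, and the 3 regions overlapped each other. Their signals were 39.4, 61.8 and 48.2, at ranks 6481, 1654 and 3358. The relative signals were 0.511, 1.23 and 0.819, so that in replicates 2 and 3 the region was among the strongest candidates. In the pooled list, the summit nearest to these regions was 14327 bp away from the replicate 1 summit and further from the others. Over all arms, chains of overlapping candidates formed 10913 clusters with a region from every replicate, and 260 of them (2.38%) had no pooled counterpart. Of the 3999 clusters with a strongest candidate from at least 2 replicates, 41 (1.03%) had a region from every replicate and no pooled counterpart. The cluster at dome is 1 of the 41. Why these regions are missing from the pooled list was not tested. The nearest IDR summit to dome lay 7449 bp beyond the end of the gene, in an intron of Zw (601).

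The kinase gene hop (FBgn0004864, X, minus strand, 11360930 to 11368098) had no candidate inside its body in the pooled list or in any replicate. The strongest pooled candidate of its window had a signal of 69.1 at rank 8540. It lay 2787 bp upstream of hop, in an intron of dlg1 and 1220 bp from a TSS of that gene. Its counterpart had a signal of 32.3 (rank 8580) in replicate 1 and 27.5 (rank 6584) in replicate 2, and replicate 3 listed no candidate in the window. The nearest IDR summit was 9379 bp from the gene body, in an intron of CG1737, with a signal of 272.

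**Figure D2:**
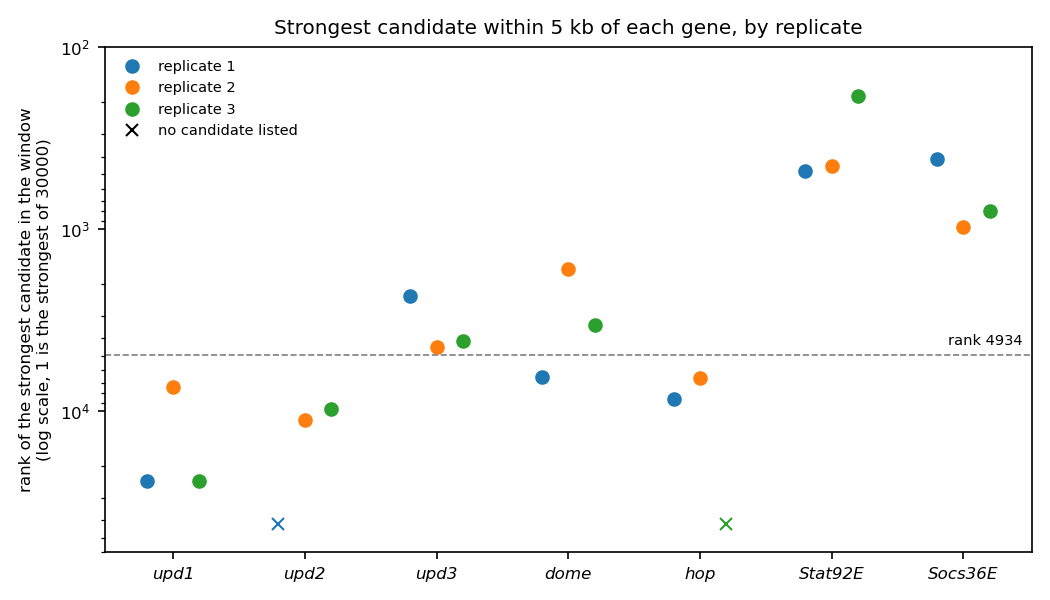
Rank of the strongest candidate within 5 kb of each JAK-STAT gene in each replicate. The vertical axis is the rank on a log scale with rank 1 at the top, colours are the 3 replicates, crosses mark windows with no candidate and the dashed line is rank 4934. Stat92E and Socs36E lie at ranks 185 to 981 in all 3 replicates. The points of upd3 also lie above the line throughout, but they stand for a different region in each replicate. The points of dome lie above the line in replicates 2 and 3, and upd1, upd2 and hop lie below it throughout.

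Stat92E (FBgn0016917, 3R, minus strand, 20535323 to 20552311) encodes the single STAT factor of the fly and has 2 TSSs. It had the strongest peak of the 7 genes and the most pooled candidates, 16, or 5.93 per 10 kb against 2.24 per 10 kb over the 6 arms. A pair of peaks 670 bp apart followed its second TSS. The summit 327 bp downstream of that TSS lay in the 5′ UTR (20550565 to 20550994), with a pooled signal of 218 and 122, 58.8 and 43.6 in replicates 1, 2 and 3. The summit 997 bp downstream lay in the intron (20549895 to 20550324), with a pooled signal of 251 and 104, 68.5 and 87.1 in the replicates. The intronic peak was the steadier of the pair, with a relative signal of 1.4 ± 0.0716 (SD, n = 3), while the 5′ UTR peak had 1.17 ± 0.425 and was below the median of the IDR peaks in replicate 3.

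The strongest peak in the window of Stat92E, and of all 9, had its summit 4598 bp upstream of the first TSS. It covered 253 bp (20556756 to 20557008), with a pooled signal of 488 at rank 343, above 93% of all IDR peaks. The signals were 188, 112 and 192 in replicates 1, 2 and 3, at ranks 482, 453 and 185, which gave a relative signal of 2.64 ± 0.55 (SD, n = 3). The summit lay in an intron of DPCoAC, a gene of the mitochondrial carrier family, and 745 bp downstream of its TSS, so that it is nearer to DPCoAC than to Stat92E. Of the 13 candidates outside the IDR list, 10 were listed in at least 2 replicates and 5 in all 3. Among those 5, the summits 797 and 127 bp downstream of the second TSS shared their replicate regions with the IDR peaks beside them. The strongest of them, 3110 bp downstream of the second TSS, had a signal of 102 at rank 5197, just outside the IDR list.

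The 201 bp around the summits of the intronic and the upstream peak of Stat92E are shown because they had the highest signals of this gene. They are 3R:20550010-20550210 and 3R:20556809-20557009 of dm6, read on the minus strand, the strand of Stat92E, from the RefSeq copy of the Release 6 genome. They hold no capitals, since none of the motifs searched was found in them. The upstream window has an unbroken run of c.
Stat92E, 997 bp downstream: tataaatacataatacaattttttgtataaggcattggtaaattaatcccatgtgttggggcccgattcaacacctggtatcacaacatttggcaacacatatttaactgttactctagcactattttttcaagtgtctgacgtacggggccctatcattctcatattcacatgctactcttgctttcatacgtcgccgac
Stat92E, 4598 bp upstream, DPCoAC intron: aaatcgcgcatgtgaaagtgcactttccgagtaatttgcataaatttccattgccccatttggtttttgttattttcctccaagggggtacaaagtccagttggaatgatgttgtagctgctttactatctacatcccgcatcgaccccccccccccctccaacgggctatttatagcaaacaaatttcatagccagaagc

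Socs36E (FBgn0041184, 2L, minus strand, 18138675 to 18152417) encodes a suppressor of cytokine signalling that limits the pathway. Its 3 peaks lay inside the gene body and none within 500 bp of its TSS, whereas the 3 summits of upd3 lay outside the body. The strongest had its summit in the intron, 6957 bp downstream of the TSS, and covered 236 bp (18145358 to 18145593). Its pooled signal was 378 at rank 579, above 88.3% of all IDR peaks. The signals were 201, 81.2 and 103 in replicates 1, 2 and 3, at ranks 411, 981 and 797, and the relative signal was 1.99 ± 0.538 (SD, n = 3). Every replicate thus placed it within its top 1000 candidates, replicate 1 highest. A weaker intronic peak 1410 bp closer to the TSS (18146655 to 18147084) had a pooled signal of 149.8 and 64.1, 32.9 and 48.1 in the replicates. Its relative signal of 0.767 ± 0.0998 was below the median of the IDR peaks in every replicate.

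The third peak of Socs36E had its summit in a coding exon, 10622 bp downstream of the TSS and 3712 bp upstream of the TSS of kel, the nearest TSS. It covered 18141580 to 18142009, with a pooled signal of 164 and 37.8, 59.8 and 64.5 in replicates 1, 2 and 3. Its relative signal was 0.491 in replicate 1, against 1.19 in replicate 2 and 1.1 in replicate 3. Replicate 1 ranked it 6877, outside the strongest candidates, and the other 2 replicates ranked it 1756 and 1971. Its summit window had a GC content of 58.7%, the highest of the 9, against a median of 38.8% over all IDR peaks. Without replicate 3, 1 of the 3 Socs36E peaks was among the strongest of both others, and without replicate 1 or 2 there were 2. Near the TSS of Socs36E the pooled list held candidates outside the IDR list. The summit 182 bp downstream, in the 5′ UTR, had a signal of 81.2 at rank 6988, that at 881 bp had 79.1, and that at 1821 bp had 81.9.

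The 201 bp around the summits of the strongest and of the exonic Socs36E peak are shown, since one had the highest signal and the other the highest GC content in this gene. They are 2L:18145360-18145560 and 2L:18141695-18141895 of dm6, read on the minus strand, the strand of Socs36E, from the RefSeq copy of the Release 6 genome. Capitals mark GAGAG and its reverse complement CTCTC, which occur only in the exonic window. The exonic window opens with runs of cac and cag triplets.
Socs36E, 6957 bp downstream, intron: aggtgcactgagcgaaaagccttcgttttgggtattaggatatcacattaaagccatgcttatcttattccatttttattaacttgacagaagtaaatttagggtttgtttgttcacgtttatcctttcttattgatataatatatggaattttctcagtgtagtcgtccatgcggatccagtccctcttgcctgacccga
Socs36E, 10622 bp downstream, coding exon: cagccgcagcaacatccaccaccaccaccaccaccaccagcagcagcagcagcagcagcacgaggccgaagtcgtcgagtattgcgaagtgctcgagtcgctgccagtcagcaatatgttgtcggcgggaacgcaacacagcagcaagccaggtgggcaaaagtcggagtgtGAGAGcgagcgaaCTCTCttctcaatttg

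With the peak of highest pooled signal taken for each gene, the relative signals gave the order Stat92E, Socs36E, upd3. Stat92E had 2.44, 2.23 and 3.27 and Socs36E had 2.6, 1.61 and 1.74 in replicates 1, 2 and 3, and these ranges overlap. The difference was 0.658 on average (SD 0.844, range -0.163 to 1.52, n = 3), with Stat92E higher in 2 of 3 replicates, and an exact two-sided sign-flip permutation test gave p = 0.5. The mean difference was smaller than its SD, and with 3 replicates the test cannot give less than 0.25, so it does not decide this order. The Stat92E peak used here is the one in the DPCoAC intron, nearer to the TSS of DPCoAC. The Stat92E peak 997 bp downstream of the second TSS had 1.35, 1.36 and 1.48 in replicates 1, 2 and 3. These values were below those of the Socs36E peak in every replicate, so the order depends on which peak stands for Stat92E. For upd3 the peak of highest pooled signal is the one near the TSS, with a mean of 0.63. Its most distant peak had a higher mean of 0.712, and 1.01 in replicate 1. Socs36E exceeded the upd3 peak near the TSS by 1.36 (SD 0.549, range 0.912 to 1.97, n = 3) and in 3 of 3 replicates, without overlap. The exact sign-flip permutation test gave p = 0.25, the smallest value that 3 replicates allow, and p = 0.5 for both pairs after Benjamini-Hochberg adjustment over the 2 pairs. The test therefore could not reach 0.05.

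**Figure D3:**
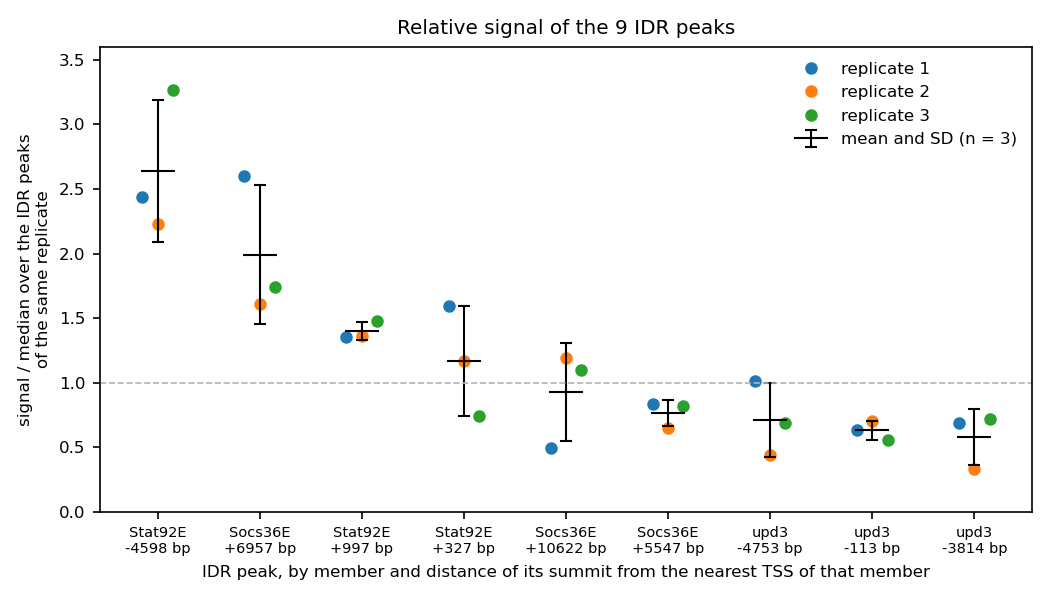
Relative signal of the 9 IDR peaks at the JAK-STAT genes, ordered by mean. The vertical axis is the signal divided by the median over the IDR peaks of the same replicate, labels give the gene and the distance of the summit from its nearest TSS in bp, coloured points are the 3 replicates, and bars are the mean and SD (n = 3). The Stat92E peak 4598 bp upstream (2.64 ± 0.55) and the Socs36E intronic peak (1.99 ± 0.538) are highest, and the means of the 3 upd3 peaks lie below the dashed line at 1.

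The sites that Stat92E recognizes were counted on both strands in the same windows as a description of the DNA. The windows held 56 matches to TTCNNNGAA, of which 22 were in the window of Socs36E, 11 in Stat92E, 6 each in upd3 and dome, 5 in hop, 4 in upd1 and 2 in upd2. The density was 9.27 per 10 kb at Socs36E, and 1.58 to 4.08 at the other 6 genes, against 3.2 per 10 kb over the 6 arms. Of the 22 at Socs36E, 20 lay in the gene body and 5 within 700 bp downstream of the TSS. Reporters of pathway activity are built from such intronic DNA of Socs36E. The 300 bp from 405 to 704 bp downstream of its TSS hold 4 of these 5 sites, and are shown with the sites in capitals. They are 2L:18151713-18152012 of dm6, minus strand, from the RefSeq copy of the Release 6 genome, and lie in the intron, outside the IDR peaks. Their end overlaps a pooled candidate (18151321 to 18151750, signal 79.1) that was listed in all 3 replicates and covers the site TTCTGAGAA.
Socs36E, 405 to 704 bp downstream, intron: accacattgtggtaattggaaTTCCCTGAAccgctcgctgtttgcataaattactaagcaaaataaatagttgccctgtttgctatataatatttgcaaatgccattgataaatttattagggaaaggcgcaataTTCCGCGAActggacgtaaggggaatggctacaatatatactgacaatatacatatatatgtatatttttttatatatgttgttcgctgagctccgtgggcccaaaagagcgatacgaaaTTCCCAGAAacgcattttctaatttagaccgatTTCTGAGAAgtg

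None of the 9 IDR summits had such a site within 100 bp. Of the IDR summit windows of the whole series, 201 bp wide, 5.25% held TTCNNNGAA, against 6.51% of windows 1000 bp to one side. The version with 4 bases between TTC and GAA, TTCNNNNGAA, was likewise found in 0 of the 9, in 5.09% of all IDR summit windows and in 6.12% of the windows to one side. The closest site to an IDR summit of the 7 genes, TTCAAGGAA, was 119 bp from the strongest peak at Stat92E, in the DPCoAC intron. At Socs36E the closest was 375 bp away and at upd3 1364 bp away. Of the 56 sites, 1 lay within 100 bp of a pooled candidate summit, TTCATAGAA at upd2 (28 bp). That candidate had a signal of 35 at rank 20590, and the nearest summit of a single replicate was 185 bp from the site. Replicates 1, 2 and 3 listed 35, 49 and 47 candidates in the 7 windows, and 7 of the 56 sites lay within 100 bp of a summit of these. No background share was computed for these 2 counts of sites, so they are descriptions only. Among the 7 sites were TTCCAGGAA and TTCCGAGAA in the 5′ UTR of dome, 68 and 94 bp from a summit of replicate 3. That summit, 200 bp downstream of the TSS, belongs to a weak candidate of signal 12.3 at rank 27169. It is not one of the 3 dome summits described above. At TTCGGGGAA, 66 bp downstream of the Socs36E TSS, the summit of a replicate fell on the site itself (distance 0 bp). The others were TTCCTGGAA (7 bp), TTCAAGGAA (68 bp) and TTCAGCGAA (73 bp) at Stat92E, and TTCACAGAA (91 bp) at hop.

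**Figure D4:**
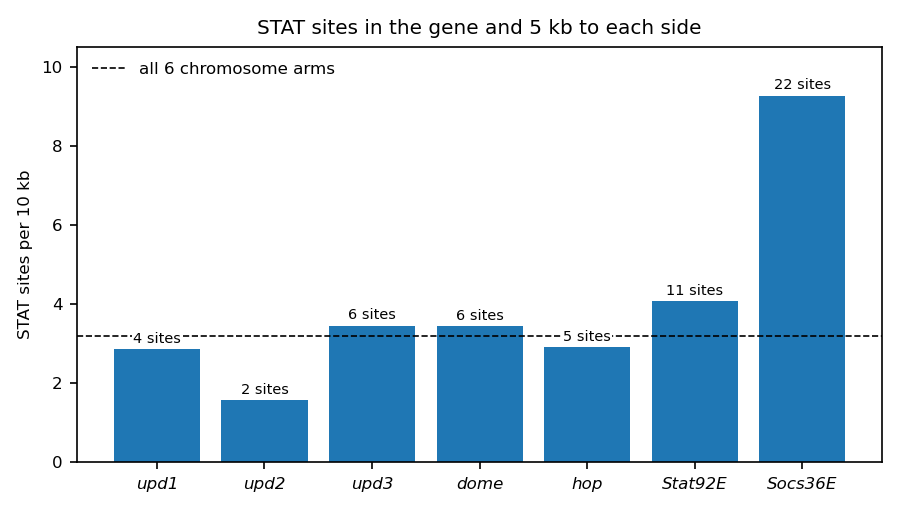
Density of TTCNNNGAA sites in the window of each JAK-STAT gene (gene body and 5 kb to each side). The vertical axis is the number of sites per 10 kb, bars are genes with the number of sites written above, and the dashed line is the density over the 6 arms. Socs36E has 9.27 sites per 10 kb, and the other 6 genes lie between 1.58 and 4.08.

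The letters GAGAG, searched on both strands, were found in 2 of the 9 windows, those of upd3 at its TSS and of the Socs36E exon, beside 34.5% of all IDR summit windows and 23.7% of the windows to one side. The E-box CACGTG, found in 1.91% of all IDR summit windows, and the DNA replication-related element TATCGATA, found in 0.872%, occurred in none of the 9. The corresponding shares to one side were 2.05% and 0.689%. A match describes the letters in a window, and a window without a match says only that those letters are not in it.

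The peaks whose relative signals were most like those of the strongest peak of each gene were sought among 1753 IDR peaks within 500 bp of a TSS and listed in all 3 replicates. Likeness was the Euclidean distance between log2 relative signals over the 3 replicates, so that small values mean a like level and a like pattern. For Stat92E the nearest were 2 peaks upstream of Sesn (distance 0.063 each, from the same replicate regions) and 1 upstream of Drat (0.14). For Socs36E they were at Poxm (0.07), phr6-4 (0.17) and Ptp4E (0.17), and for upd3 at hoe1 (0.084), NKAIN (0.11) and plum (0.14). The peak at Poxm, for example, had relative signals of 2.72, 1.63 and 1.73 in replicates 1, 2 and 3, and hoe1 had 0.665, 0.693 and 0.539. With 3 replicates, such distances rest on few values.

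Of 20 further genes of the pathway, 11 had an IDR summit in the gene body or within 5 kb, beside 37.1% of all protein-coding genes. That share is over genes of every length, and no share for genes as long as these was computed. Long genes such as Ptp61F (132765 bp) and chinmo (53425 bp) have wider windows in which a summit can fall. An IDR summit within 500 bp of a TSS was found at 3 of the 20, ken, chinmo and Mmp1, beside 13.2% of all protein-coding genes. Without replicate 1, 5 of the 20 kept a summit among the strongest of both others, without replicate 2 there were 6 and without replicate 3 there were 9. The shares over all protein-coding genes were 27.8%, 27.1% and 28.6%. No enrichment was tested for these genes or for the groups among them. Among the negative regulators, 4 of 6 had an IDR summit and Socs16D and Socs44A had none. The highest signal was at ken, which encodes a transcriptional repressor, at 795 and, in relative terms, 4.35 ± 1.14 (SD, n = 3), though this summit lay in an intron of Mtpbeta and 191 bp from its TSS. The receptor-like antagonist gene et, next to dome, had the Zw intronic summit (601) in its window, of relative signal 3.04 ± 0.868 (SD, n = 3). The peak at Su(var)2-10, which encodes a SUMO ligase of the PIAS family, known inhibitors of STAT factors, had a signal of 501 and lay 91 bp from the TSS of GstE13, with relative signals of 3.02 and 3 in replicates 1 and 2 and no candidate in replicate 3. The phosphatase gene Ptp61F, whose body spans 132765 bp, had 7 IDR summits of signal up to 244.

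Among the Stat92E partners and chromatin factors, 1 of 5 had an IDR summit, the kinase gene Cdk4, while CycD, E(bx), BRWD3 and asrij had none. Among the reported targets, 6 of 9 had an IDR summit, and TotA, Tep1 and eve had none. The highest of the targets was the transcription factor gene zfh1, with a signal of 444 in its intron, in relative terms 2.32 ± 0.315 (SD, n = 3). The stress gene TotM had a summit of signal 255 in its window, in an intron of Ncoa6, with relative signals of 1.48 and 1.62 in replicates 1 and 2 and no candidate in replicate 3. The other targets with a summit were chinmo, vir-1, slbo and Mmp1. For 7 of the 11 genes, the TSS nearest to the strongest summit was that of another gene, namely at ken, et, Su(var)2-10, Ptp61F, Cdk4, TotM and vir-1.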

How the data were processed

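ChIP-seq, anti-GFP by the description though the antibody label reads CG9139, was performed on 3 labelled biological replicates of 1 group, so no groups were compared. The deposited dm6 lists hold the authors' signal per region, enrichment relative to 1 control alignment shared by the replicates, per the deposited notes. They comprise 30000 candidates per replicate, 30000 from pooled reads, and the IDR list. Which aligner and caller were used, and at what IDR threshold, is not given in the sources used here. The dm3 lists were not used.

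Genes came from Ensembl release 115 and sequence from the RefSeq copy of Release 6. Python 3.11.15, numpy 2.4.6, pandas 2.3.3, scipy 1.17.1 and matplotlib 3.10.9 were used. Replicate regions were matched to a pooled region by an overlap of at least 1 bp, taking the strongest. Motifs were sought within 100 bp of a summit. The code that assigns summits to genes was run on simulated data. It found 200 of 200 summits planted near a TSS at their gene. This checks the code only and cannot tell to which of several neighbouring genes a summit belongs.

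All 7 genes were named with every IDR summit, or with the strongest pooled candidate where they had none. Other pathway genes with an IDR summit were named with values for up to 6 of highest signal, as were genes whose TSS was nearer to a summit and the 3 peaks most like each strongest one. The genes and lists were chosen with earlier results of these data known, so counts stand beside the share over all genes and no enrichment was tested. Alternatives were other windows, TSS distances, overlaps, list lengths, medians and motif windows, and leaving out each replicate. Relative signals were compared between genes by exact sign-flip permutation tests.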

Additional observations from a re-analysis of the deposited data

How the results depend on the processing

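Of 57 alternatives, 31 stayed within the spread between replicates or within 1.5 times the reported count, and 26 moved further. The number of IDR summits at the 7 genes, 9 with windows of 5 kb, was 5 for gene bodies alone, 14 with 10 kb, 4 for peaks above the median signal, and 5 to 7 with a replicate left out. Pooled candidates numbered 24 in gene bodies and 67 with 10 kb, against 43. With 10 kb, 5 of the 7 genes had an IDR summit, dome and hop in addition. The share of all protein-coding genes with a summit was 12.1% for gene bodies and 52.2% with 10 kb. Genes with a summit near a TSS numbered 1 within 200 bp, 1 for peaks above the median signal, and 1 to 2 with a replicate left out. The share over all protein-coding genes is not given for these settings, so these counts are descriptions only. Peaks among the strongest candidates of all 3 replicates numbered 8 for lists of 10000 and 9 for all 30000. Of all IDR peaks, 96.8% were listed in all 3 replicates with all 30000, and the share for lists of 10000 is not given. Divided by the median over all candidates, the relative signal of the same peaks was 8.85 at Stat92E, 6.72 at Socs36E and 2.11 at upd3, in the same order. The pooled value of upd3 was 0.734. No setting replaced the Stat92E peak in the DPCoAC intron by one nearer to Stat92E. With a replicate left out, relative signal was 2.33 to 2.85 at Stat92E, 1.68 to 2.17 at Socs36E and 0.595 to 0.667 at upd3. With 200 bp to each side of the summit, 1 of the 9 peaks had a TTCNNNGAA site, and the share over all IDR peaks was 10.1%, and 2.66% with 50 bp. The other pathway genes with a summit numbered 6 for gene bodies, 3 within 500 bp of a TSS, and 5 to 9 with a replicate left out. Taken as 1 interval with 5 kb to each side, the ligand genes had 5 IDR summits. That interval, the TTCNNNNGAA spacing and the restriction to summits nearest the gene's own TSS, which left 7 of 9, were chosen after seeing the data. The cause of these shifts was not tested beyond the wider or narrower windows and lists themselves. No paired analysis was possible because there is 1 group, with no second group to pair it with, and the sign-flip tests pair only peaks within a replicate. Depth is unknown, so how far it limits the absence of IDR peaks at dome, hop, upd1 and upd2 cannot be given.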
